A study of Mus musculus with 8 samples.

Results

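The immediate early factors described here are 10 named genes: Fos, Fosb, Jun, Junb, Jund, Egr1, Atf3, Ier2, Nr4a1 and Klf2. They were chosen by name, and all 10 were found among the 27849 genes of the files. The study profiled the mouse subventricular zone (SVZ), the stem cell niche along the wall of the lateral ventricle, cell by cell with Drop-seq. In this method a droplet pairs 1 cell with 1 barcoded bead, and a unique molecular identifier (UMI) marks each captured transcript. There were 8 libraries, 1 for each group. In the sort experiment, at 2 months of age, the groups were cells with high GFP, cells with low GFP, cells negative for GFP, and an unsorted group taken for viability only. The age series took viable cells with no GFP gate from mice of 4 ages: 2 weeks and 2, 6 and 12 months. Mice of every group carried the CGD transgene on a C57BL/6 background. In it, Nestin sequences drive CreERT2, H2B-eGFP and the diphtheria toxin receptor, which P2A sequences separate, so GFP reports the activity of those sequences, and a histone-bound GFP can outlast it. The labels do not say how many mice were pooled in a library, of which sex they were, or whether tamoxifen or toxin was given.

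Immediate early genes are switched on within minutes of a stimulus by transcription factors already present in the cell, with no need for new protein. Products of the Fos and Jun families pair as basic leucine zipper proteins and form the factor AP-1. Egr1 and Klf2 are zinc finger factors, Nr4a1 is an orphan nuclear receptor, Atf3 is a stress-induced member of the ATF/CREB family, and Ier2 is a short-lived nuclear protein. In the brain this class of genes is best known as a marker of recent neuronal activity. Dissociating a tissue with enzymes is also known to induce it. Klf2 is in addition known as a gene that blood flow keeps high in endothelium.

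The stretch before the start site is shown for 4 members, all of which hold the TGACG core counted below. RefSeq promoters (build GRCm38.p6) were found for 8 of the 10 members, all but Egr1 and Ier2. Each line holds the 250 bases before the RefSeq start, 5′ to 3′ on the gene's strand. Capitals mark the core of a cyclic AMP response element, TGACG, on either strand (CGTCA is the same core on the opposite strand), and the TATA box letters TATAAA. The windows lie at chr12:85473640-85473889 on the plus strand for Fos, chr8:84978749-84978998 on the minus strand for Junb, chr1:191183334-191183583 on the minus strand for Atf3, and chr15:101266596-101266845 on the plus strand for Nr4a1.
Fos: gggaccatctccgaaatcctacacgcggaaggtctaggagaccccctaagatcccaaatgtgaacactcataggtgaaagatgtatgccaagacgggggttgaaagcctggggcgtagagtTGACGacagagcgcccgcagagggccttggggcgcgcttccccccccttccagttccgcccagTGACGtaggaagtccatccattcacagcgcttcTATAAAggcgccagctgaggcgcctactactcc
Junb: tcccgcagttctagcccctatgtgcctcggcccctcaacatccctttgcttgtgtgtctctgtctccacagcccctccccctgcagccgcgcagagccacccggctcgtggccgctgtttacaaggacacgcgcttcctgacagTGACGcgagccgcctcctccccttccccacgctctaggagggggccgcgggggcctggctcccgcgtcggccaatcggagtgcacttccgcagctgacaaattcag
Atf3: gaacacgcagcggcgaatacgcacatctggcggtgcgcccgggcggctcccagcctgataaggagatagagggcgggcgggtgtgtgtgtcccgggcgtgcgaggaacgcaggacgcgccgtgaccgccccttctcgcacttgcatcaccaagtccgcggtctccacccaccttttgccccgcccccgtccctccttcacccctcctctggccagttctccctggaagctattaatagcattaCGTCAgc
Nr4a1: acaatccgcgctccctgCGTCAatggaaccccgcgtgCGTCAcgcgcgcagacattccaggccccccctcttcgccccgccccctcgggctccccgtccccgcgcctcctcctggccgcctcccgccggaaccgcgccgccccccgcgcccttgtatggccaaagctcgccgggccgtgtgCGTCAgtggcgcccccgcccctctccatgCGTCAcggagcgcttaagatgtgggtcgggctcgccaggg
TGACG was present in 6 of the 8 member windows, all but those of Jun and Jund, and in 17.8% of the windows of the same length before 32851 RefSeq starts. It was chosen after the sequences had been seen, and it holds a CpG, so base composition bears on how often it occurs. Counted back from the start, it began 129 and 66 bases before Fos, 106 before Junb, 7 before Atf3, and 233, 213, 69 and 40 before Nr4a1. TATAAA was found before Fos alone among the 8, 33 bases from the start, against 12.4% of all windows. The full element TGACGTCA (1.55% of all windows), the AP-1 element TGANTCA (6.75%) and the CArG box bound by serum response factor (1.47%) had no match in the 8 windows on either strand. These are matches of letters in a short window and were not set against binding data.

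In the GENCODE annotation of GRCm38, 4 members lie on chromosome 8: Jund at 70698949 to 70700616, Klf2 at 72319033 to 72321656, Ier2 at 84661331 to 84662852 and Junb at 84974484 to 84978718. Fos lies on chromosome 12 at 85473890 to 85477273, Fosb on chromosome 7 at 19302696 to 19310051, Jun on chromosome 4 at 95049034 to 95052222, and Egr1 on chromosome 18 at 34859823 to 34864984. Atf3 spans 191170296 to 191218039 on chromosome 1 and Nr4a1 spans 101254269 to 101274795 on chromosome 15. For Atf3 and Nr4a1 the RefSeq start used above lies inside the longer GENCODE gene. For Jund the window used above ends at 70697738, well before the GENCODE start at 70698949.

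The libraries held 750672 to 2633834 UMIs in 11017 barcodes, of which 9100 had at least 400 UMIs. After removal of 129 doublets 8971 cells were kept, 514 to 1658 per library, with a median of 722 to 1237 UMIs per cell and 1.48% to 2.82% of UMIs from mitochondrial genes. Barcode sequences found in more than one library numbered 2. Cells were clustered without the members, and clusters were named from marker genes: "microglia" below means microglia-like cells, and likewise for each class. A cluster of 787 cells met no set of markers. It was given no cell type and is called the unnamed cluster. The libraries differed in sex. Xist had 0 UMIs at 2 weeks. Y-linked genes (Ddx3y, Eif2s3y, Uty and Kdm5d, summed) had 0 UMIs at 2 months and 1 at 12 months, and the other 5 libraries held both. The 2-month and 12-month libraries were thus alike in these genes. Each comparison of ages given below sets libraries of unlike sex make-up against each other, so in them age and sex cannot be told apart. Each group has 1 library, and no test between gates or ages was made. Ratios between libraries carry exact 95% intervals for counting error only, which are too narrow as a statement of error between mice.

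The 10 members together were at 1596 to 4380 UPM (UMIs per 1000000 UMIs of the cells kept). The summed level was 1596 UPM in the unsorted library, 1986 in GFP low, 2095 in GFP high and 2308 in GFP negative. Over the ages it was 2652 UPM at 12 months, 2929 at 2 months, 3844 at 2 weeks and 4380 at 6 months. All 4 libraries of the age series thus lay above all 4 of the sort experiment. The 2 experiments also differed in which cells they held, and the part of this in the difference was not tested. A sum over all cells does not tell fewer cells of a type from a lower level in those cells. Levels within classes are therefore given below.

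Jun gave the largest share of the members' transcripts, 30.7% of 28942 member UMIs, followed by Egr1 with 18.8% and Fos with 18.6%. Jund gave 11.6%, Ier2 7.96%, Junb 6.02%, Atf3 1.79%, Klf2 1.68%, Fosb 1.59% and Nr4a1 1.23%. Fos was at 670, 327, 306 and 235 UPM in GFP high, GFP low, GFP negative and unsorted, and at 847, 368, 740 and 480 UPM from 2 weeks to 12 months. Its low values were thus in the unsorted, negative and low libraries and at 2 months. Egr1 was at 272, 468, 285 and 235 UPM in the same order of gates, and at 802, 632, 823 and 498 UPM over the ages. Each age was above each gate for Egr1, though by little between 12 months and GFP low. Ier2 showed the same separation, with 77.8, 191, 77.2 and 111 UPM in the sort experiment against 364, 294, 374 and 213 UPM in the age series. Atf3 ranged from 1.22 UPM in GFP low, where it had 3 UMIs, to 105 in GFP negative. Klf2 ranged from 2.84 UPM in GFP low to 82.5 at 2 months. These 2 genes had 3 and 7 UMIs in GFP low and at least 23 in each other library. Jun ranged from 507 to 1298 UPM, Junb from 28.0 to 353, Jund from 190 to 550, Fosb from 10.2 to 64.8 and Nr4a1 from 11.0 to 67.6.

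Microglia carried more of the members than any other class present in several libraries. Their summed level was 6315 UPM at 2 weeks, 6667 in unsorted, 6778 at 2 months, 6869 at 12 months, 9547 in GFP negative and 12580 at 6 months. In every library with both, microglia were above neuroblasts (6 of 6 libraries), the unnamed cluster (6 of 6), the astrocyte and neural stem cell (NSC) class (6 of 6), dividing progenitors (5 of 5), oligodendrocytes (5 of 5), mature neurons (4 of 4), endothelial cells (3 of 3) and oligodendrocyte precursors (2 of 2). Ependymal cells, the ciliated lining of the ventricle, could be measured in GFP high alone (60 cells), at 7533 UPM. Below microglia the medians over libraries were 3702 UPM in endothelial cells (range 1228 to 7129), 3311 in neuroblasts (1553 to 6434), 3234 in the unnamed cluster (1014 to 7315), 3105 in pericytes and smooth muscle (667 and 5543), 2366 in oligodendrocyte precursors (1948 to 3295) and 1977 in dividing progenitors (1112 to 5582). The astrocyte and NSC class had a median of 1834 UPM, mature neurons 1022 (653 to 2260) and oligodendrocytes 886 (629 to 1817). Below microglia, neighbours in this order overlapped. Endothelial cells exceeded neuroblasts in 2 of 3 shared libraries, neuroblasts exceeded the unnamed cluster in 4 of 7, and that cluster exceeded oligodendrocyte precursors in 1 of 3. Precursors exceeded dividing progenitors in 2 of 3, dividing progenitors exceeded the astrocyte and NSC class in 6 of 7, that class exceeded mature neurons in 2 of 4, and mature neurons exceeded oligodendrocytes in 2 of 4. Several of the thin sums rest on 1 cell: it held 59.8% of the member UMIs of the 27 pericytes and smooth muscle cells of GFP negative (5543 UPM, 2439 without it) and 38.9% of those of the 40 unsorted endothelial cells (3702 UPM, 2316 without it). The unsorted value is the endothelial median, so the place of endothelial cells above neuroblasts rests on that cell. Erythrocytes, which have lost the nucleus, had the lowest median of any class. They held 4 member UMIs in 34 cells at 6 months (97.8 UPM) and 20 in all 63 cells of all libraries (237 UPM, 145 to 366). The part of RNA from other cells in this level was not tested, and it does not give a background for other classes.

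**Figure D1:**
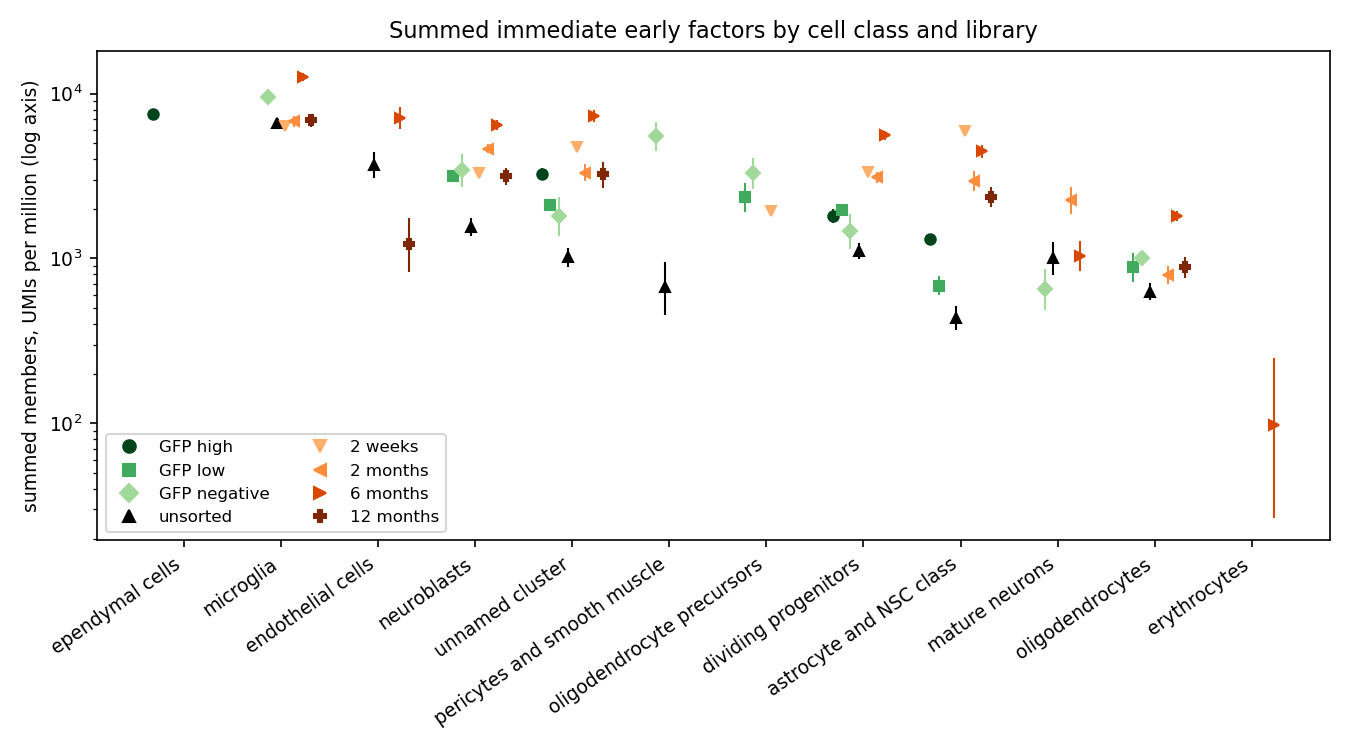
Summed UPM of the 10 immediate early factors (log axis) by cell class, 1 point for each library with at least 20 cells of the class, with exact Poisson 95% intervals for counting error. Microglia lie between 6315 and 12580 in all 6 libraries, while the astrocyte and NSC class spreads from 434 to 5966; its GFP-negative value of 0 in 22 cells cannot be drawn on a log axis.

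Microglia and ependymal cells also led when depth was made equal. With every cell thinned to 400 UMIs, 31.8% of 779 microglia had 3 or more member UMIs (exact interval 28.6% to 35.2%, median depth before thinning 786 UMIs), against 45.2% unthinned. The share was 47.4% of 76 ependymal cells, 19.7% of 1393 neuroblasts, 16.9% of 142 endothelial cells, 15.9% of the unnamed cluster and 13.4% of 778 dividing progenitors. It was 10.8% in oligodendrocyte precursors, 8.70% in pericytes and smooth muscle, 5.19% in the astrocyte and NSC class, 2.54% in oligodendrocytes and 1.10% in mature neurons. In erythrocytes 0 of 63 cells reached it, which allows up to 5.69%, and unthinned 1 cell (1.59%), at a median depth of 1214 UMIs. Unthinned, the share in dividing progenitors was 57.6%, above that of microglia, at a median depth of 2531.5 UMIs. By library, the thinned share over all cells was lowest in the unsorted library (6.41%, 15.8% unthinned), followed by GFP high (7.09%, 16.7%), 12 months (9.53%, 23.3%), GFP low (10.0%, 31.8%) and GFP negative (10.7%, 18.6%). It was 13.9% at 2 months (29.98% unthinned), 17.9% at 2 weeks (42.6%) and highest at 6 months (19.4%, 33.1%).

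Single members differed in which class carried them. Within the Fos family, Fos was highest in ependymal cells (2601 UPM) and then in microglia, with a median of 908 UPM (587 to 1545). Fos in oligodendrocyte precursors was at 615 to 659 UPM over 3 libraries. Of these, GFP negative held 24 such cells and GFP low 26. Over all libraries the highest cell of the class held 50 of its 304 Fos UMIs. With depth made equal, the share of precursors with a Fos UMI ran from 8.33% to 15.4% over the 3 libraries. Counts this sparse cannot show whether the level was steady. Fosb was low in most classes, with its highest median among classes in several libraries in oligodendrocyte precursors (195 UPM, range 83.5 to 374), and its median was 0 in neuroblasts. Within the Jun family, Jun was at 2447 UPM in microglia (1936 to 3899) and at 1164 in neuroblasts (526 to 1746), but at 42.5 in mature neurons. Junb was concentrated in microglia, at 1128 UPM (1007 to 2375), with 18.5 in dividing progenitors and 11.0 in oligodendrocytes. Jund, the Jun member that cells tend to express without stimulation, varied least between classes seen in 3 or more libraries. Its median ran from 168 UPM in mature neurons to 535 in microglia, and it was the most abundant member in oligodendrocytes (345 UPM, 235 to 484), where it made up 35.1% of member UMIs.

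The median of Egr1 was 942 UPM in neuroblasts (383 to 1812), 925 in microglia (727 to 1577), 768 in the unnamed cluster, 552 in dividing progenitors, 399 in oligodendrocyte precursors and 370 in mature neurons, where it gave 36.6% of member UMIs. It was 640 UPM in the ependymal cells of GFP high, 148 in the astrocyte and NSC class and 72.2 in oligodendrocytes. Ier2 had nearly equal medians in microglia (412 UPM) and neuroblasts (406), and its median was 0 in mature neurons. Nr4a1 was at 111 UPM in oligodendrocyte precursors (74.9 to 171), 99.4 in microglia (39.1 to 137) and 78.6 in mature neurons (38.4 to 127). In neuroblasts its median was 5.10 UPM.

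Atf3 and Klf2 were concentrated in few classes. Atf3 was at 778 UPM in GFP-negative, 524 in unsorted, 429 in 2-week, 422 in 2-month, 788 in 6-month and 209 in 12-month microglia, and at 455 in ependymal cells. Its median was at most 3.18 UPM in neuroblasts, dividing progenitors, oligodendrocytes, oligodendrocyte precursors, mature neurons, the astrocyte and NSC class and the unnamed cluster. Klf2 was at 1058 UPM in unsorted, 1114 in 6-month and 254 in 12-month endothelial cells, where it made up 27.4% of member UMIs. In microglia it had a median of 359 UPM (130 to 536). In neuroblasts it had 0 UMIs in all 7 libraries. Pericytes and smooth muscle of GFP negative also held both genes, at 457 UPM for Atf3 and 686 for Klf2. In unsorted these genes were at 21.5 and 0 UPM. In GFP negative 1 cell held 58 of the 97 member UMIs of the class. Over all libraries 1 cell held 10 of the 13 Klf2 UMIs of the class. The 12-month library had the lowest level of Atf3 and of Klf2 among the microglia, and of Klf2 among the endothelial cells.

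**Figure D2:**
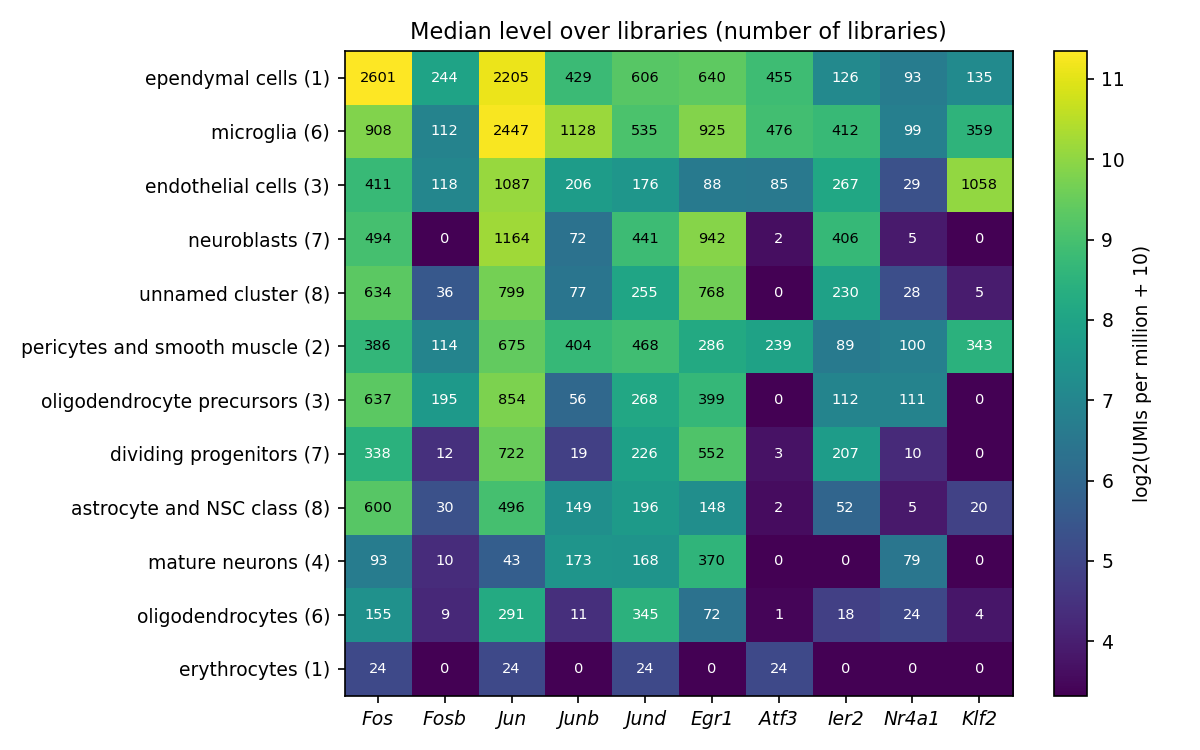
Median level over libraries of each member (columns) in each cell class (rows, number of libraries in brackets); numbers are UPM and colour is log2(UPM + 10). Klf2 stands at 1058 in endothelial cells and 0 in neuroblasts, Atf3 at 476 in microglia and 455 in ependymal cells, and Jund varies least.

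Classes were tested against each other over libraries, by edgeR's quasi-likelihood test on counts summed per library and class with the library as a block, over 7693 genes. Microglia were higher than the astrocyte and NSC class in all 10 members, where 23.0% of all tested genes were higher. The log2 difference was 5.29 for Atf3 (SE 0.35, adjusted p = 2.11e-36), 3.37 for Klf2 (SE 0.31, adjusted p = 7.11e-22), 3.03 for Junb (SE 0.21, adjusted p = 7.44e-35) and 2.70 for Nr4a1 (SE 0.42, adjusted p = 3.29e-09), each higher in 6 of 6 libraries. Egr1 (2.14) and Jun (2.09) were also higher in 6 of 6, and Ier2 (1.81) and Jund (1.30) in 5 of 6. Fos was the smallest difference, 0.84 (SE 0.23, adjusted p = 7.37e-04), in 4 of 6 libraries, and Fosb differed by 1.39 in 3 of 6. The call of Fos was lost without the unsorted library (0.37), and both were lost among the 5 ungated libraries (0.27 for Fos, 0.55 for Fosb) and with DESeq2. Against cluster 3 of the class alone, introduced below, Fos turned to -0.21. The counts of libraries include GFP negative, whose 22 cells of the astrocyte and NSC class (13756 UMIs) held 0 member UMIs. Any member UMI in the other class makes that class higher there. The same holds for the comparisons with this class given below.

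Dividing progenitors differed from the astrocyte and NSC class in 6 of 10 members, where 58.7% of all genes were called, 28.6% higher and 30.2% lower. Egr1 rose by 1.59 on the log2 scale (SE 0.19, adjusted p = 1.72e-14), higher in 7 of 7 libraries, and Ier2 by 1.05 (SE 0.21, adjusted p = 4.98e-06), in 6 of 7. Junb fell by 2.04 (SE 0.27, adjusted p = 5.81e-12) and Klf2 fell by 3.56 (SE 0.55, adjusted p = 1.85e-09), both lower in 6 of 7 libraries and at 0 UMIs in both classes in GFP negative. Fos fell by 1.03 (adjusted p = 1.18e-05) and Fosb fell by 1.54 (adjusted p = 2.91e-04), yet the progenitors were higher for Fos in 3 and for Fosb in 2 of the 7. Jun (0.05), Jund (-0.19), Atf3 (-0.67) and Nr4a1 (0.04) did not pass. The class compared holds 2 clusters, and the direction of Fos and Fosb turned with the cluster used: against cluster 0 alone the log2 differences were 0.91 for Fos and 0.99 for Fosb, against cluster 3 alone -2.03 and -2.29. Ier2 was at -0.03 against cluster 3, and the call of Junb was lost against cluster 0 (-0.49). The call of Fosb was lost without the 2-week library (-0.69), that of Fos with DESeq2 (-0.98).

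From dividing progenitors to neuroblasts, 5 of 10 members were called, where 33.5% of all genes were called, 15.9% higher and 17.7% lower. Jund was higher by 0.84 (SE 0.18, adjusted p = 4.10e-05) in 6 of 6 libraries, Junb by 1.15 (SE 0.30, adjusted p = 9.12e-04), Fos by 0.63 (SE 0.23, adjusted p = 0.0217) and Ier2 by 0.52 (SE 0.20, adjusted p = 0.0303), each in 5 of 6. Fosb fell by 1.95 (SE 0.69, adjusted p = 0.0187) and was higher in 1 of 6. Jun was higher in 6 of 6 libraries but did not pass (0.42, adjusted p = 0.0791), nor did Egr1 (0.08). The calls of Fos, Fosb and Ier2 were lost with DESeq2. That of Fosb was also lost without GFP high or 2 weeks (-1.57 and -1.52), and that of Ier2 without GFP low or unsorted (0.48 and 0.46).

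Oligodendrocytes differed from the astrocyte and NSC class in all 10 members, where 42.5% of genes were called, 21.1% higher and 21.4% lower. Jund was higher by 0.65 (SE 0.19, adjusted p = 0.00212) in 5 of 6 libraries and Nr4a1 by 1.25 (SE 0.46, adjusted p = 0.0182) in 6 of 6. The other 8 were lower, from -2.69 for Junb, -2.50 for Klf2 and -2.07 for Atf3 to -0.93 for Jun. Oligodendrocytes were nevertheless higher for Fosb in 3 of 6 libraries and for Fos, Jun and Egr1 in 2 of 6, and for the summed members in 3 of 6. Against cluster 0 alone 4 of the 10 were called, and Fos (0.21), Fosb (1.11), Jun (0.12) and Ier2 (0.50) turned to positive differences. Leaving out 1 library ended the call of Fosb (-0.50) and of Atf3 (-1.41) without 2 weeks, of Jund (0.47) without unsorted, and of Nr4a1 without GFP high (0.89) or 12 months (1.03). The calls of Fosb, Jun and Atf3 were lost with DESeq2.

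Other genes of the early response, from lists by function, were tested in the same fits. The lists were drawn up with earlier results of these data known. Over all genes tested, 23.0% were higher in microglia, and 28.6% were higher and 30.2% lower in dividing progenitors. The shares higher and lower were 15.9% and 17.7% in neuroblasts, and 21.1% and 21.4% in oligodendrocytes. Of 16 feedback and effector genes tested of 20, such as the phosphatase gene Dusp1 and Nfkbia, which encodes an inhibitor of NF-kappa-B, 13 were higher and 3 lower in microglia than in the astrocyte and NSC class (median log2 difference 2.80, against -0.07 over all genes). They ran from Sgk1 at 6.22 (SE 0.33) to Cyr61 at -5.12 (SE 0.56). In dividing progenitors 1 was higher and 8 lower (median -1.08, against -0.04), in neuroblasts against dividing progenitors 2 higher and 3 lower (median -0.52, against 0.01), and in oligodendrocytes 2 higher and 11 lower (median -2.13, against 0.02). Of 5 other immediate early factors tested of 16, 4 were higher in microglia, among them Ier3 at 5.51 (SE 0.49), and none lower. In the other 3 comparisons, in the same order, 1, 1 and 0 were higher and 2, 1 and 2 lower. Of 11 heat shock genes tested of 12, 5 were higher and 2 lower in microglia, where Hspa1b differed by 7.29 (SE 0.57). In dividing progenitors 8 were higher and 0 lower, in neuroblasts 0 and 5, in oligodendrocytes 6 and 1. Of 11 upstream regulators tested of 18, kinases and factors that act on immediate early promoters, 6 were higher and 0 lower in microglia, 2 and 2 in dividing progenitors, 1 and 0 in neuroblasts, and 2 and 1 in oligodendrocytes.

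Between the GFP gates, the summed members were nearly equal over all cells, at a ratio of 1.05 for GFP high over GFP low (1.01 to 1.10), but single members went both ways. Of the 10, 5 were at least 2-fold higher in GFP high, where 13.1% of genes were, and 1 at least 2-fold lower, where 14.1% were. Klf2 was 9.35-fold higher (4.15 to 24.7), Fosb 3.19-fold (2.18 to 4.74), Junb 3.10-fold (2.30 to 4.21) and Fos 2.05-fold (1.87 to 2.25). Atf3 had 56 UMIs in GFP high and 3 in GFP low, a ratio of 29.8 (9.69 to 149), and 54 of the 56 lay in the 60 ependymal cells. Ier2 was at 0.408 (0.331 to 0.499) and Egr1 at 0.582 (0.519 to 0.652) of the GFP low level. The gates hold different cells. GFP high held 1081 cells of the astrocyte and NSC class and 47 dividing progenitors, GFP low 407 and 334, and 505 neuroblasts. The 60 ependymal cells of GFP high held 895 of its 3229 member UMIs (27.7%), against 35 of 4888 in 3 cells of GFP low. The part of ependymal cells in these ratios was not tested. Averaged over cells in place of summed UMIs, the ratio of the sum turned to 0.765, and among cells of at least 1000 UMIs it was 1.34. GFP high over GFP negative was 0.907 (0.859 to 0.959), and 1.43 among cells of at least 1000 UMIs.

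Within the astrocyte and NSC class the summed level was 1310 UPM in GFP high and 685 in GFP low, a ratio of 1.91 (1.67 to 2.20). Of 8 members with at least 20 UMIs, 4 were at least 2-fold higher, where 6.25% of genes were: Fos at 2.60 (1.98 to 3.46), Fosb at 5.49 (31 against 2 UMIs, 1.40 to 47.3), Ier2 at 2.33 (1.04 to 6.11) and Junb at 2.02 (1.02 to 4.43). Jun was at 1.60 (1.26 to 2.04) and Jund at 1.76 (1.25 to 2.54). Within cluster 0 of the class the ratio was 1.11 (0.851 to 1.45), within cluster 3 it was 1.87 (1.58 to 2.21). In the unnamed cluster GFP high was at 1.54 times GFP low (1.39 to 1.72) and in dividing progenitors at 0.919 (0.822 to 1.02). In each of these the ratio was nearer 1 than that between the 2 libraries of like age and gate, given next.

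The unsorted library and the 2-month library share age, transgene and the lack of a GFP gate by their labels, and serve as a measure of how far libraries differ. They come from different experiments, so this measure also holds any difference between the sort experiment and the age series. Gates and ages were each compared within the same experiment. Over all cells the unsorted level was 0.545 of the 2-month level (0.518 to 0.573). Of the 10 members, 3 were at least 2-fold lower, where 4.60% of genes were, namely Egr1 at 0.372, Ier2 at 0.378 and Jund at 0.484. Only Fosb was at least 2-fold higher (3.10), where 14.7% of genes were. In microglia the sums were 6667 and 6778 UPM, a ratio of 0.984 (0.895 to 1.08), with 1 of 10 members at least 2-fold higher (Fosb, 27 against 2 UMIs), where 10.9% of genes were. In neuroblasts the sum was 1553 against 4625 UPM, a ratio of 0.336 (0.290 to 0.388), and all 6 members with at least 20 UMIs were 2-fold lower, where 12.4% of genes were. Their ratios ran from 0.177 for Junb and 0.237 for Ier2 to 0.449 for Jund. The ratio was 0.306 in the unnamed cluster (0.257 to 0.365), 0.359 in dividing progenitors (0.313 to 0.410) and 0.790 in oligodendrocytes (0.664 to 0.939). In the astrocyte and NSC class the ratio was 0.147 (0.117 to 0.182), with 5 of 5 members at least 2-fold lower, where 8.22% of genes were. There 82 of the 209 member UMIs of the 2-month library came from 1 cell, and without the top cell of each library the ratio was 0.213 (0.165 to 0.275). The unsorted library holds RNA of both sexes and the 2-month library Xist alone. The part of sex in the difference was not tested.

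**Figure D3:**
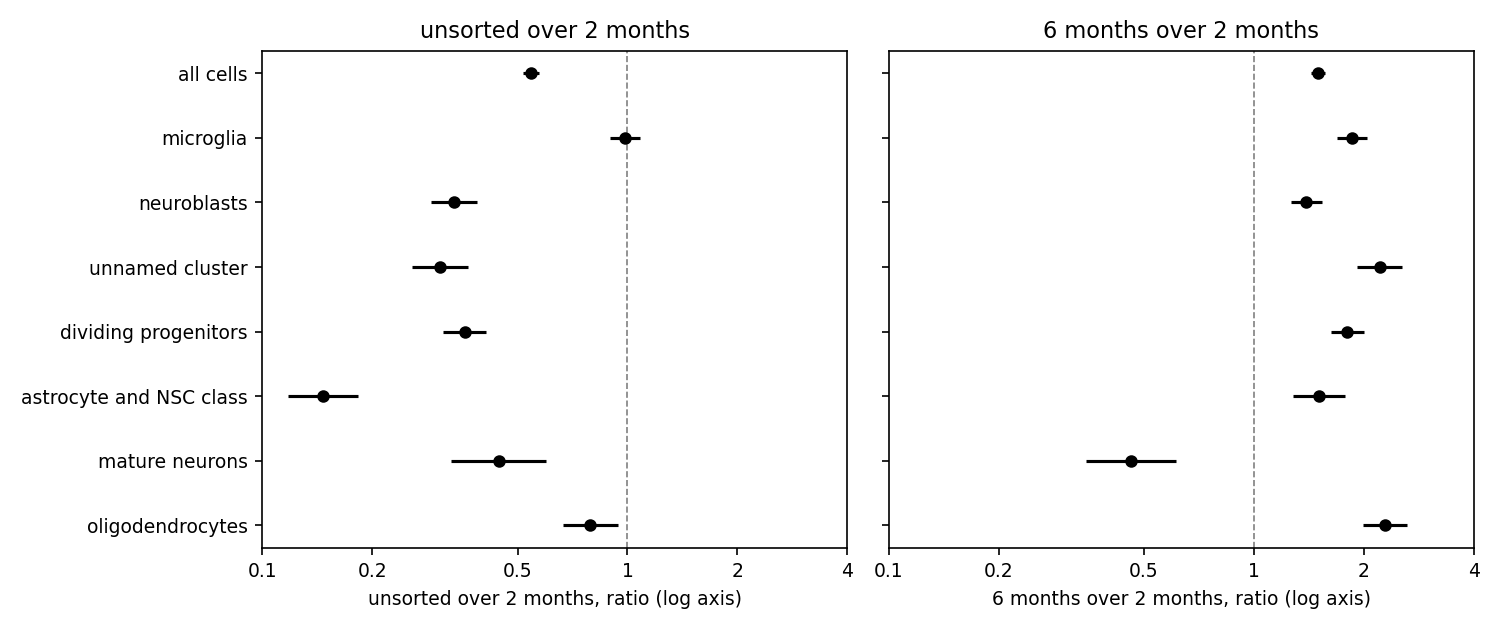
Ratio of the summed members between libraries, by cell class (log axis), with exact 95% intervals for counting error: unsorted over 2 months on the left, 6 months over 2 months on the right, with a dashed line at 1. On the left microglia sit at 0.984 while neuroblasts sit at 0.336; on the right mature neurons, at 0.461, are the one class below 1.

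Over the ages, the level did not run in 1 direction. From 2 weeks to 2 months the all-cell ratio was 0.762 (0.729 to 0.796), with 3 members at least 2-fold lower, where 7.70% of genes were: Fosb at 0.162, Fos at 0.435 and Nr4a1 at 0.439. From 2 months to 6 months it was 1.496 (1.43 to 1.56), with Fosb at 6.35 and Fos at 2.01 at least 2-fold higher, where 4.37% of genes were. From 2 weeks to 12 months it was 0.690 (0.654 to 0.728), and single members ran from 0.567 for Fos to 1.03 for Junb. These 3 comparisons share libraries, and each ratio of the sum over all cells was nearer 1 than 0.545, that between the unsorted and the 2-month library. This did not hold within every class, as given next.

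The 6-month library was above the 2-month library in most classes. In microglia the ratio was 1.86 (1.69 to 2.04), and 4 of 9 members were at least 2-fold higher, where 6.14% of genes were: Fosb (24 against 2 UMIs), Fos at 2.63, Jun at 2.01 and Egr1 at 2.01. Klf2 was at 0.796 (0.513 to 1.22). In oligodendrocytes the ratio was 2.28 (1.98 to 2.63), and 6 of 8 members were at least 2-fold higher, where 5.62% of genes were. Fos went from 44.5 to 341 UPM, a ratio of 7.65 (4.49 to 14.0), Junb was at 4.16, Egr1 at 3.55, Jun at 2.33 and Ier2 at 2.13. Fosb had 24 UMIs at 6 months and 0 at 2 months, at least 6.24-fold higher with a floor of 3 UMIs. Jund, the main member of these cells, was at 1.34 (1.06 to 1.68). Neuroblasts (1.39), dividing progenitors (1.80) and the unnamed cluster (2.21) were also above 1. In microglia and oligodendrocytes the ratio was further from 1 than that of unsorted over 2 months in the same class. In neuroblasts, dividing progenitors and the unnamed cluster it was nearer 1. Mature neurons were at 0.461 (0.346 to 0.612), from 31 cells at 2 months and 49 at 6 months, with 3 of 4 members at least 2-fold lower, where 6.93% of genes were: Egr1 at 0.291, Junb at 0.342 and Fos at 0.363. A single cell held 39 of the 111 member UMIs of the 2-month neurons. Without the top cell of each library the ratio was 0.613 (0.443 to 0.850). Unsorted over 2 months, likewise without the top cells, was 0.605 in mature neurons (0.428 to 0.853). With all cells these levels were 1003 and 2260 UPM. The 6-month ratio in neurons was thus no further from 1 than that of the libraries of like age and gate.

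The astrocyte and NSC class varied most between libraries. Its summed level was 0 in the 22 cells of GFP negative (13756 UMIs), 434 UPM in unsorted, 685 in GFP low and 1310 in GFP high. In the libraries of the 4 ages it was 2358 UPM at 12 months, 2965 at 2 months, 4459 at 6 months and 5966 at 2 weeks, so each age was above each library of the sort experiment. Without its top cell the 12-month level was 1123 UPM, below that of GFP high. The 12-month level was 0.395 of that at 2 weeks (0.339 to 0.459), with 6 of 9 members at least 2-fold lower, where 15.8% of genes were. The class held 80 cells of cluster 0 and 10 of cluster 3 (described next) at 12 months, against 120 and 83 at 2 weeks, and within cluster 0 the ratio was 0.233. Ier2 was at 0.237, Egr1 at 0.269, Jun at 0.339 and Fos at 0.364, while Junb was at 1.10 (0.690 to 1.71). Nr4a1 (1 against 19 UMIs, ratio 0.172, 0.00413 to 1.08) and Klf2 (2 against 19, ratio 0.344, 0.0388 to 1.42) complete the 6. At 12 months 1 cell held 106 of the 196 member UMIs. Without the top cell of each library the ratio was 0.199 (0.159 to 0.246), and among cells of at least 1000 UMIs it was 0.691. In microglia 12 months over 2 weeks was 1.09 (0.975 to 1.21).

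The class holds 2 clusters, which differed in the members. Cluster 0 (1543 cells, led by Cxcl14, Cldn10 and Agt) had all 12 astrocyte markers at least 2-fold higher than other cells. Cluster 3 (848 cells, led by Urah, Sfrp1 and Ccdc80) had 10 of 12. In every library with at least 20 cells of both, the members were higher in cluster 3. The levels in cluster 0 and cluster 3 were 385 and 2421 UPM in GFP high, 348 and 1297 in GFP low, 283 and 677 in unsorted, 621 and 14023 at 6 months, 1689 and 12394 at 2 weeks, and 2342 and 4436 at 2 months. At 2 months 1 cell held 82 of the 116 member UMIs of cluster 0, and the level without it was 709 UPM. From 2 months to 6 months cluster 3 was at 3.16 (2.52 to 3.999), with 6 of 6 members at least 2-fold higher, where 10.3% of genes were, from 29 and 33 cells. Jund was there at 3.86, Jun at 3.45, Junb at 2.93, Fos at 2.46 and Egr1 at 2.24, and Ier2 had 31 against 1 UMIs, a ratio of 21.0 (3.49 to 854). Members in ependymal cells were at 7533 UPM in GFP high, above both clusters there. Markers of ependymal cells summed to 336 to 638 UPM in cluster 3 and 239 to 409 in cluster 0, against 17162 in ependymal cells. Ependymal markers were the next best set in cluster 3, with 4 of them at least 2-fold higher than in other cells. Microglia markers summed to 102 to 378 UPM in cluster 3 and 116 to 609 in cluster 0. The part of other cells in the difference between the clusters was not tested. The clusters were built without the members and the listed genes, but other genes that move with them may have entered.

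**Figure D4:**
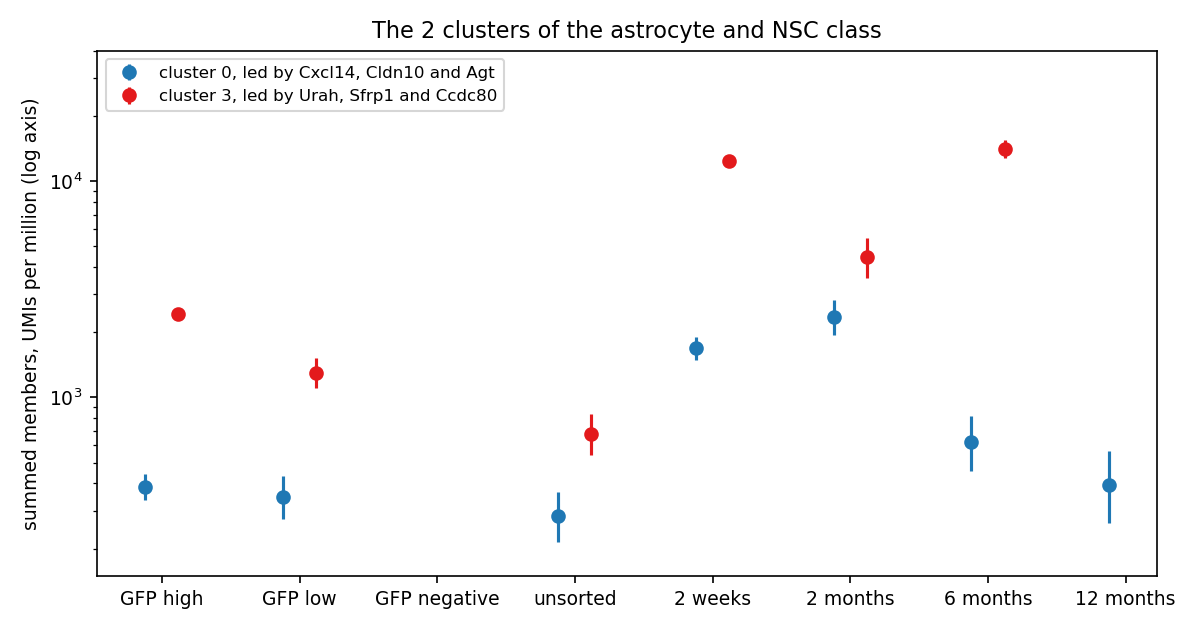
Summed UPM of the members (log axis) in the 2 clusters of the astrocyte and NSC class by library, with exact Poisson 95% intervals for counting error; libraries with fewer than 20 cells of a cluster are left out, as is cluster 0 of GFP negative. Cluster 3 lies above cluster 0 in each of the 6 libraries with both, from 677 against 283 in unsorted to 14023 against 621 at 6 months.

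The members were unevenly spread over cells. The 10% of cells with the most member UMIs held 65.0% of them, and 63.6% when each cell was thinned to 400 UMIs, while 44.9% of cells had none (63.0% thinned). The variance of thinned member UMIs was 5.46 times their mean over all cells, where independent counts give 1. Within classes this ratio was 7.88 in the astrocyte and NSC class, 7.21 in microglia and 3.33 in neuroblasts, but 1.19 in mature neurons. Fos (3.59) and Jun (3.47) had the highest ratios in the astrocyte and NSC class, and Jund (1.29) was near 1. The highest single cell held 128 member UMIs, at 2 weeks.

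Members were found together in cells more often than their own frequencies give. Within 56 combinations of library and class (8677 cells thinned to 400 UMIs), all 45 pairs occurred together more often than expected from unrelated genes, from 1.41 times for Jun with Nr4a1 (29 cells against 20.6 expected) to 6.71 times for Fosb with Nr4a1 (13 against 1.94). Fos and Egr1 shared 335 cells against 136 expected, a ratio of 2.46 that was above 1 in 8 of 8 libraries. Rare pairs were less even: Jun with Nr4a1 was above 1 in 5 of 8 libraries and Atf3 with Nr4a1 (6 cells) in 4 of 8. Fos and Jun shared 414 against 219. Within combinations of library and cluster (65, with 8602 cells) all 45 stayed above 1, from 1.32 to 5.99 with a median of 2.35. Pairs of other genes were not counted, so whether this is particular to the members was not tested.

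**Figure D5:**
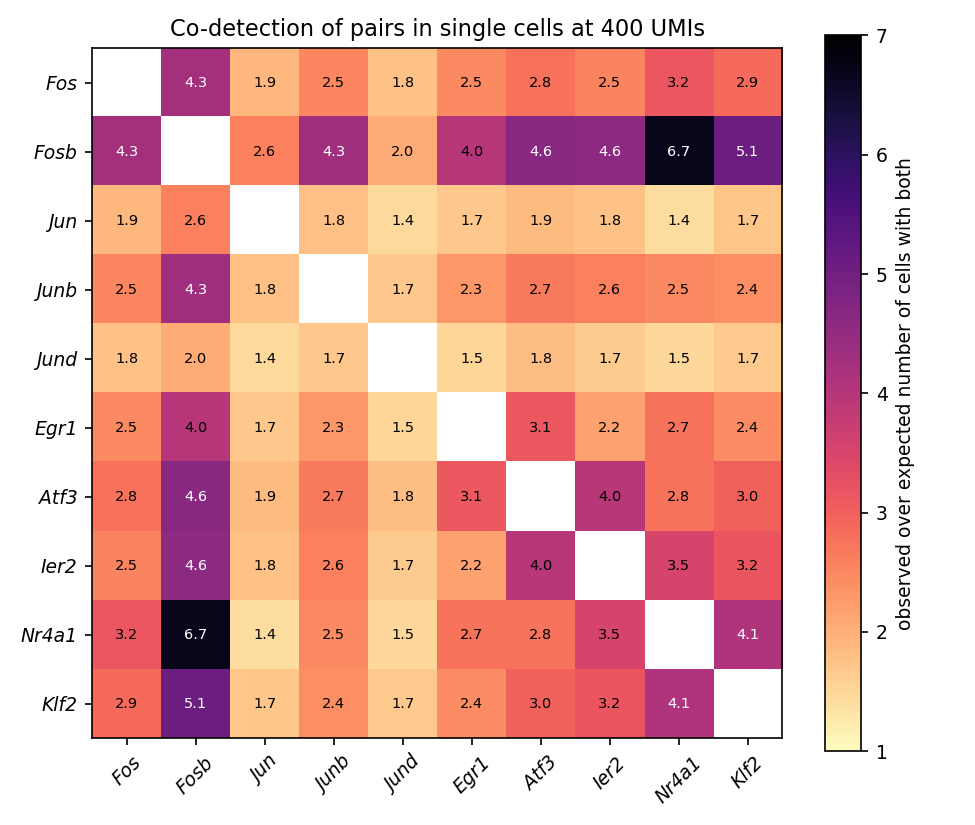
Number of cells with both genes of a pair divided by the number expected if the genes were unrelated within library and class, at 400 UMIs per cell. All 45 pairs are above 1, from 1.41 for Jun with Nr4a1 to 6.71 for Fosb with Nr4a1.

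Cells with 3 or more member UMIs were set against cells with none, within 14 combinations of library and cluster that held at least 20 of each. Such cells were chosen by the members' own counts, so the values are a description, and the genes named outside the lists were chosen after their values were seen. Of 5302 genes with at least 100 UMIs, 38 (0.717%) were more than 2-fold higher, and the median ratio was 0.984. Highest were the cytokine gene Il1b at 36.4 (187 against 6 UMIs), Ier3 at 26.9, Ccrl2 at 15.7, and the chemokine genes Ccl4 at 11.8 and Ccl3 at 10.2, genes that microglia are known to express. The feedback and effector genes had 11 of 15 above 2 with a median of 4.55, led by Zfp36 at 10.3, Ppp1r15a at 8.21 and Dusp1 at 7.60. All 3 of the other immediate early factors with enough UMIs were above 2 (median 3.89). Of the heat shock genes 3 of 10 were above 2, namely Hspa1b at 4.85, Hspa1a at 3.87 and Dnajb1 at 3.07 (median 1.13), and of the upstream regulators 0 of 7 (median 0.981). Summed over its genes, the feedback list was 3.22 to 6.43 times higher in microglia, 3.74 and 4.80 in the cluster 3 combinations, 1.79 to 3.75 in neuroblasts, 1.16 and 1.86 in the unnamed cluster and 1.26 in dividing progenitors. The summed heat shock list was also higher in such microglia, by 1.33 to 3.27 times with each of the 5 intervals above 1. In the other 9 combinations it was 0.931 to 1.24 times as high. The part of stress or handling in these values was not tested.

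Across 40 sums of library and class with at least 50 cells (9 classes), the genes most like the summed members were found by Pearson's r of log2(UPM + 50) after the mean of each class was taken out, among 4538 genes. They were Btg2 (0.92), Dusp1 (0.87), Ppp1r15a (0.79), Srrm2 (0.76), Strbp (0.73), Klf6 (0.73), Rbm5 (0.72) and Sarnp (0.71). Of these, Btg2, Dusp1, Ppp1r15a and Klf6 belong to the lists of the early response. Without taking out class means, r was 0.86 for Btg2, 0.90 for Dusp1 and 0.01 for Strbp. The members' own r with the sum, of which each is a part, was 0.95 for Jun, 0.94 for Fos and Egr1, 0.92 for Junb, 0.89 for Ier2, 0.82 for Jund, 0.55 for Fosb, 0.50 for Nr4a1, 0.43 for Atf3 and 0.38 for Klf2. Sums of 1 library share its mice, handling and depth, so the 40 points are not independent and no p is given.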

How the data were processed

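Single-cell RNA of 8 libraries was measured by Drop-seq, sequenced on a NextSeq 500 per the labels' protocols. The authors deposited raw UMI counts per gene and barcode. The submitters' processing notes name the builds mm10 and GRCm38, while the aligner and counter were not given in the sources used here. Barcodes with at least 400 UMIs were kept and Scrublet (expected doublets 5%) removed 129 (1.42%), which left 8971 cells. Counts were scaled to 10000 per cell and logged. Of these, 2000 variable genes without the members and the listed genes were cut at 10 after scaling, reduced to 30 principal components, joined to 15 neighbours and clustered (Leiden, resolution 1, 16 clusters). A cluster was named where at least 3 markers of a set were 2-fold higher than in other cells and the set led the next by 0.1 of its markers.

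Levels are UMIs per 1000000 over summed counts (UPM). Ratios between libraries carry exact conditional binomial 95% intervals, levels exact Poisson and shares Clopper-Pearson intervals. UMIs of 1 cell are not independent, so these cover counting error only. A gene was past the fold at 2-fold with at least 20 UMIs over both groups. Class tests used edgeR's quasi-likelihood test with TMM scaling and its filter on low counts, on sums of at least 20 cells in at least 3 libraries, with the library as a block because both classes come from the same library, and Benjamini-Hochberg adjustment at 0.05 over 7693 genes. On simulated counts for the comparison of dividing progenitors with the astrocyte and NSC class, the test recovered 92% of 2-fold and 100% of 4-fold changes, with 9 false calls among 4964 genes. The simulation used the same base profile for all classes, no difference between libraries and a common dispersion of 0.0287. Genes with few expected UMIs were not changed in it. These rates therefore do not carry over to members with few UMIs or with a wider spread. With the library as a block, p-values rest on the spread left after differences between libraries are taken out, estimated over all classes of the fit. The labels do not say whether libraries come from separate animals, so this spread may be technical.

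All 10 members were accounted for. Of the other lists, the genes named are those with the highest and lowest value, at most 4 per list and comparison, and the 8 genes most like the members by r among genes with at least 500 UMIs. The members and lists were chosen with earlier results of these data known. Alternatives were DESeq2, its size factors, no filter on low counts, no block, each library left out, the 5 libraries with no GFP gate, a minimum of 1000 UMIs, means over cells, other clusterings, single clusters of the astrocyte and NSC class, and leaving out the cell with the most member UMIs. The single clusters, and the top cell of each class, were added after the data were seen. Versions were edgeR 4.0.16 and DESeq2 1.42.0 in R 4.3.3, and scanpy 1.11.5, anndata 0.12.19, igraph 0.11.9, scikit-learn 1.9.0, pandas 2.3.3, scipy 1.17.1, numpy 2.4.6 and matplotlib 3.10.9 in Python 3.11.15.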

Additional observations from a re-analysis of the deposited data

Results flagged for a closer look

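For 3 pairs of classes the summed members went opposite ways between the same libraries, and the difference between the classes was not tested. GFP low over GFP negative was 1.35 in dividing progenitors and 0.718 in oligodendrocyte precursors, where 1 cell held 33 of the 88 member UMIs of the 24 GFP-negative precursors. From 2 months to 6 months the ratio was 2.28 in oligodendrocytes and 0.461 in mature neurons, or 2.16 and 0.613 without the top cell of each library. From 2 weeks to 2 months it was 1.40 in neuroblasts and 0.497 in the astrocyte and NSC class, or 1.44 and 0.326 without the top cells. In mature neurons unsorted over 2 months was 0.605 without the top cells, so the 6-month ratio there was no further from 1.

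Barcodes with fewer than 400 UMIs, which entered no comparison, also held the members. Their summed level was 999 UPM in the unsorted library, 1096 in GFP high, 1250 in GFP low, 1756 at 12 months, 1821 at 2 weeks, 2511 in GFP negative, 2868 at 2 months and 3383 at 6 months. These levels were 0.474 to 1.09 times those of the cells kept in the same library.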

How the results depend on the processing

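Of 31 called differences of single members between classes, re-computed under each alternative, 458 values kept direction and call, 51 lost the call and 8 reversed. The reversals came with single clusters of the astrocyte and NSC class. Against cluster 0 the log2 differences were 0.91 for Fos and 0.99 for Fosb in dividing progenitors, and 0.21 for Fos, 1.11 for Fosb, 0.12 for Jun and 0.50 for Ier2 in oligodendrocytes, where 4 members in place of 10 were called. Against cluster 3 they were -0.0282 for Ier2 in dividing progenitors and -0.21 for Fos in microglia. With no replicate block for the library, edgeR called 4 members in dividing progenitors, 9 in microglia, 5 in oligodendrocytes and 0 in neuroblasts against dividing progenitors (1 at an unadjusted p under 0.05), in place of 6, 10, 10 and 5. In neuroblasts 2 members were called with DESeq2, and 3 each among the 5 libraries with no GFP gate and among cells of at least 1000 UMIs. With 1 library left out, 6 members were called in dividing progenitors in each case (Jun in place of Fosb without 2 weeks), 9 to 10 in microglia, 8 to 10 in oligodendrocytes and 4 to 6 in neuroblasts.

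Among cells of at least 1000 UMIs, the summed ratio was 1.34 for GFP high over GFP low, 1.43 for GFP high over GFP negative, 0.596 for unsorted over 2 months, and 0.691 for 12 months over 2 weeks in the astrocyte and NSC class. As a mean over cells, it was 0.765 for GFP high over GFP low, 0.599 for GFP high over GFP negative, and for 12 months over 2 weeks 0.274 in the astrocyte and NSC class and 0.958 in microglia. With the listed genes included in the clustering, the astrocyte and NSC class gave 1.58 for GFP high over GFP low and 0.469 for 12 months over 2 weeks. Cluster 0 alone gave 1.11 and 0.233, and 12 months over 2 weeks without the top cells was 0.199. The share of cells with 5 or more member UMIs after thinning to 400 was 1.14 times as high in GFP high as in GFP low, against 0.731 with 3 or more, both from a random draw separate from that behind the shares given above. The causes were not tested. Sums of 20 to 40 cells and members with few UMIs, such as Atf3, Nr4a1 and Fosb, limit what can be seen at this depth.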
